A study of Homo sapiens with 6 samples.

Results

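The genes ASNS, GLUL, GLUD1, PYCR1, ALDH18A1, GOT1, GOT2 and GPT2 encode enzymes that move nitrogen between glutamate, glutamine, asparagine, aspartate, alanine and proline. They were taken by their symbols from the deposited tables, where 8 of 31369 genes carry these names, and all 8 passed the filter on low counts that left 15878 genes for testing. The study compared 3 control samples (NC, genotype wild type) with 3 samples overexpressing *PPM1K* (OE) by sequencing stranded mRNA libraries of HK-2, an immortalised cell line from the proximal tubule of a human kidney. The OE cells were transfected with a *PPM1K* plasmid by Lipofectamine, and what the NC cells received is not given in the sources used here. The sample entries of both groups also name chronic kidney disease and day 10, and the titles name short hairpins (shControl and shPPM1K) while the genotype entries name overexpression. The titles and cell type entries give HK-2 for all 6 samples, but the cell line entries of the samples other than NC replicate 1 carry other numbers after HK, and all were treated here as HK-2. PPM1K is a mitochondrial phosphatase that activates the complex breaking down branched-chain keto acids. The study speaks of biological replication without saying whether the samples of a group were separate cultures, so p-values measure only the spread between these samples, which may be technical.

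Glutamate stands at the centre of amino acid nitrogen metabolism. Its amino group passes to oxaloacetate or pyruvate through transaminases, its side chain takes up ammonia to give glutamine or is reduced to give proline, and the amide nitrogen of glutamine is what turns aspartate into asparagine. In the proximal tubule of the kidney, glutamine is broken down to glutamate and then to 2-oxoglutarate, which releases ammonia for acid excretion. Cells short of amino acids raise ASNS through the transcription factor ATF4, and ASNS is a common readout of that response.

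*PPM1K* itself had counts of 37, 19 and 53 in the NC samples and 3294, 3531 and 2919 in the OE samples, in the direction of the genotype entries and opposite to the titles. Total counts per sample were 34635770 to 36116963 in NC and 36033404 to 39850802 in OE. Every member had at least 525 counts in each sample. NC replicate 2 stood apart with 26478 genes above 0, against 22094 to 22913 in the other 5 samples. The epithelial genes PAX8, CDH6, KRT8, KRT18 and EPCAM had an FPKM of at least 1 in every sample, while 8 other proximal tubule markers of the list, among them CUBN, AQP1 and HNF4A, stayed under 1. LRP2, a defining marker, had 1 count in NC replicate 2 and 0 in the other samples. SLC22A6 and SLC22A8, also on the list, were not found in the deposited counts. Of the 9 testable proximal tubule and epithelial genes, 1 was higher and 5 lower in OE at an adjusted p under 0.05 (edgeR). By the same rule, 24.9% of all tested genes were higher and 23.7% lower. CDH6 had a log2 fold change of −1.82. Of 12 markers of podocytes, endothelium, leukocytes, stroma and other tubule segments, 10 were in the table and 0 reached an FPKM of 1. PECAM1 and VWF were higher in OE among the 4 that could be tested, and the summed FPKM of the list was 0.89 to 1.02 in NC and 1.08 to 1.56 in OE. The summed FPKM of the proximal tubule and epithelial list was 591 to 656 in NC and 517 to 553 in OE, and the part of both lists in the results was not tested.

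ASNS, GPT2, GOT1 and PYCR1 were higher in OE, GLUL, ALDH18A1 and GOT2 were lower, and GLUD1 did not pass the test. In the quasi-likelihood test of edgeR, adjusted by Benjamini-Hochberg over all tested genes, 4 members rose and 3 fell at an adjusted p under 0.05, where 24.9% of all tested genes rose and 23.7% fell. At the study's thresholds, which add a fold change above 2 or below 0.5, ASNS was the only member called, against 1.73% of all tested genes called higher, and 0 members were called lower, against 3.79%. All differences are on the level of the whole culture, where fewer cells of a type and less RNA per cell cannot be told apart. The 7 members that passed had NC and OE samples that did not overlap, as did 55.3% of all tested genes, and each reached p = 0.1 in a two-sided exact permutation test, which is the lower limit for 3 against 3 samples.

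**Figure D1:**
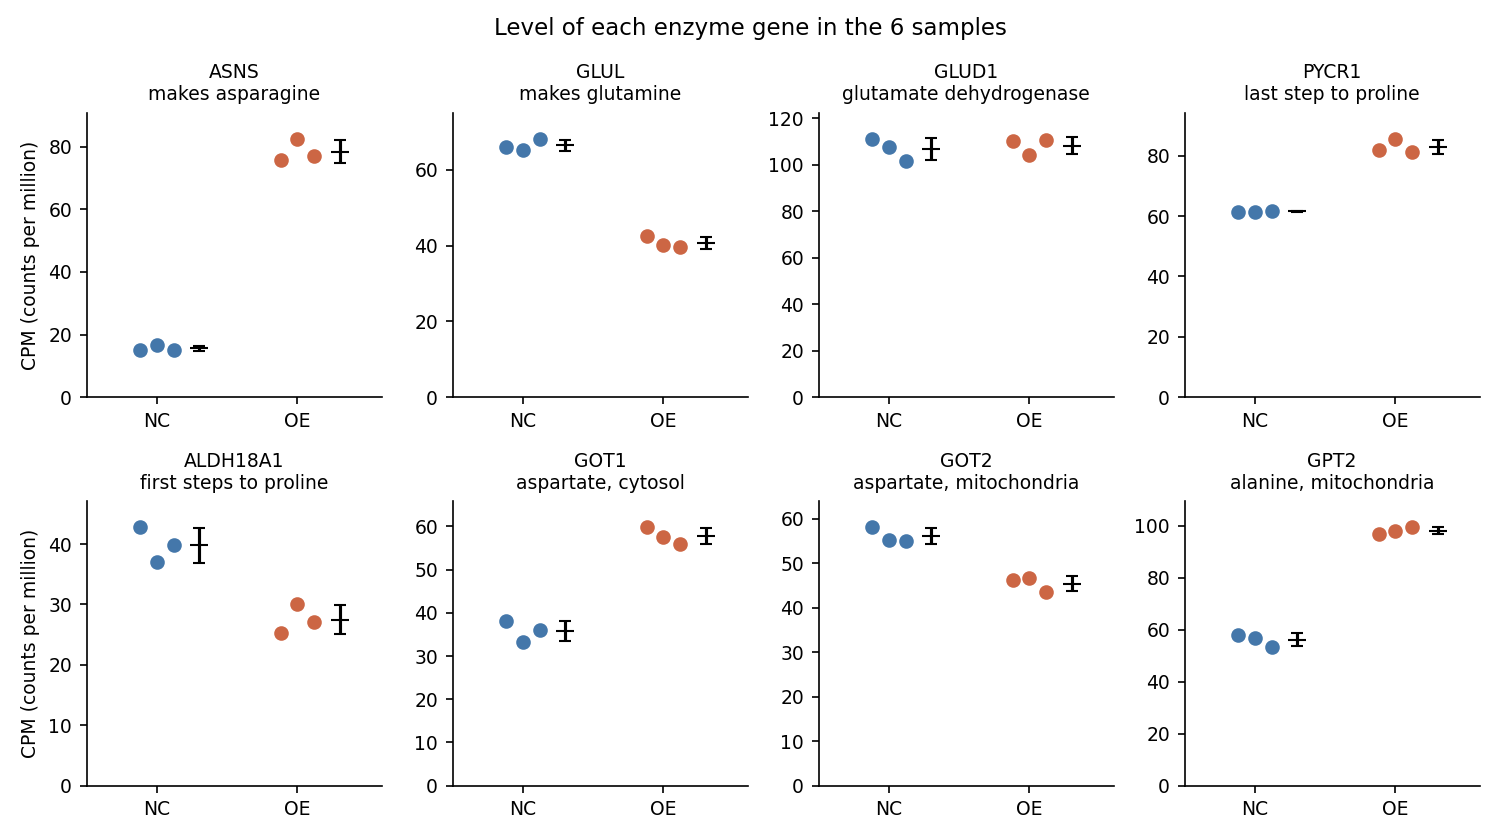
CPM, the counts scaled to library size, of the 8 enzyme genes in each sample, with the NC samples in blue, the OE samples in orange and the mean ± SD of 3 samples beside them. The groups overlap only for GLUD1, and ASNS goes from 15.5 to 78.4 on average.

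ASNS, asparagine synthetase, makes asparagine from aspartate with nitrogen from glutamine. Its CPM, in the order of replicates 1 to 3 as for all genes, was 15.1, 16.6 and 14.99 in NC and 75.8, 82.5 and 77.0 in OE. Every OE sample lay far above every NC sample. The log2 fold change in edgeR was 2.33 with a standard error of 0.07 and an adjusted p of 1e-16, a 5.04-fold difference with a 95% interval of 4.59 to 5.54. By p it was at rank 7 of all tested genes. ASNS (ENSG00000070669.17) lies on the minus strand at chr7:97851677-97872542 in GENCODE release 44 on GRCh38, with 13 exons in its MANE Select transcript, the reference transcript shared by GENCODE and RefSeq.

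A readthrough lncRNA gene (ENSG00000284707.2, RP5-1090P18.1 in the table) covers 99.5% of the exon bases of that ASNS transcript on the same strand. How the counting treated reads that fall in both genes is not stated, so the level of ASNS may be understated, and its fold change rests on the reads given to it. The readthrough gene had a CPM of 9.68, 11.8 and 12.8 in NC and 9.99, 9.86 and 11.4 in OE. Its samples overlapped, and its log2 fold change was −0.14 (adjusted p = 0.3, edgeR). The ASNS pseudogenes ASNSP1 and ASNSP3 held at most 1 count in a sample.

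A region before one of the RefSeq start sites of ASNS is shown because it holds the letters of the amino acid response element and because ASNS had the largest fold change of the members. A stretch of 30 bases, from −70 to −41 relative to the start, at chr7:97872449-97872478 (minus strand, RefSeq, GRCh38.p14), reads as follows, with capitals for TGATGNAA, the core of the C/EBP-ATF response element (CARE), and for GTTACA, known in this promoter as NSRE-2. The stretch lies inside the annotated span of the gene, in an exon of GENCODE transcripts that start further upstream.

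ASNS: caTGATGAAActtcccgcacgcGTTACAgg

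Of 35116 RefSeq promoter windows of the 250 bases before a start site, 3.14% held TGATGNAA on either strand and 5.59% held GTTACA. RefSeq windows were found for 6 of the 8 members, ASNS, GLUL, GLUD1, ALDH18A1, GOT1 and GOT2. ASNS and GLUL have 2 windows each, for different start sites. TGATGNAA was found in 1 of the 2 windows of ASNS and in that of GOT1, both higher in OE, and not in the windows of GLUL, GLUD1, ALDH18A1 or GOT2. PYCR1 and GPT2, also higher in OE, had no window and were not searched. The other ASNS window held neither TGATGNAA nor GTTACA. A match of letters describes the window and does not show that a factor binds there.

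The aspartate aminotransferases moved apart. GOT1, the cytosolic enzyme, had a CPM of 38.1, 33.4 and 35.9 in NC and 59.8, 57.5 and 56.0 in OE. All OE samples lay above all NC samples, and edgeR gave 0.69 as log2 fold change with a standard error of 0.06 and an adjusted p of 9.5e-09. GOT2, the mitochondrial enzyme, had 58.1, 55.3 and 55.0 in NC and 46.2, 46.7 and 43.5 in OE. Here all OE samples lay below all NC samples, at a log2 fold change of −0.30 with a standard error of 0.06 and an adjusted p of 0.00014. Both enzymes interconvert aspartate and glutamate and together form part of the malate-aspartate shuttle, which carries reducing equivalents into mitochondria. GOT1 lies at chr10:99396870-99430624 and GOT2 at chr16:58707131-58734342.

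The ratio of GOT1 to GOT2 in deposited FPKM, fragments scaled to transcript length and library size, was 1.01, 0.934 and 1.01 in NC and 2.00, 1.91 and 1.99 in OE. GOT1 made up 49.6 ± 1.18% of the summed FPKM of the pair in NC and 66.3 ± 0.612% in OE (SD, n = 3 each). The ratio was thus 1.99-fold higher in OE, without overlap between the groups (two-sided exact permutation p = 0.1, and also 0.1 after Benjamini-Hochberg adjustment over 7 ratios). A ratio within a sample does not depend on the size of the library.

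The upstream sequences of GOT1, ALDH18A1 and GOT2 are printed to set members that moved in opposite directions side by side. They are taken from RefSeq (GRCh38.p14, minus strand for all 3). GOT1 covers chr10:99430625-99430874, ALDH18A1 covers chr10:95656712-95656961, and GOT2 covers chr16:58734343-58734566, where bases inside annotated exons were left off. Capitals mark TGATGNAA or its complement in GOT1, the E-box CACGTG and the ATF core TGACGT or its complement in ALDH18A1, and the ATF core in GOT2.

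GOT1: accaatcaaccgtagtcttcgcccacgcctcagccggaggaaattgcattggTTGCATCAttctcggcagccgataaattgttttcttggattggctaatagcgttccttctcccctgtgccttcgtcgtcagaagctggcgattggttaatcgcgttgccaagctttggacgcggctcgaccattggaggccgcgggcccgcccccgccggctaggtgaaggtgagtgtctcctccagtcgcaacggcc
ALDH18A1: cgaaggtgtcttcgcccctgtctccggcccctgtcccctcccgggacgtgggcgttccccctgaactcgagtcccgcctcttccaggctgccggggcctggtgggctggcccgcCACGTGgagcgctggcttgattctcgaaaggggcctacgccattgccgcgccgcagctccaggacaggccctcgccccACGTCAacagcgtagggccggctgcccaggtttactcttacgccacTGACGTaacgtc
GOT2: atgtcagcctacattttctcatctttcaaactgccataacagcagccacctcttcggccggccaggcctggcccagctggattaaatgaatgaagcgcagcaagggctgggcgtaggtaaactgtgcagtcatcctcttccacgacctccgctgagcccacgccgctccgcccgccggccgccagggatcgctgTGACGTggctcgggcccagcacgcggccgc

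In GOT1 the element lies on the opposite strand, where it reads TGATGCAA, from −198 to −191 relative to the start site. The E-box of ALDH18A1 lies from −136 to −131. E-boxes were found in 6.34% of the 35116 windows and TGACGT in 7.10%, each searched on both strands. CCAAT, the CCAAT box, was matched 5 times in the GOT1 window and is present in 32.0% of all windows. No matches of different motifs shared a base in these windows.

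GPT2, the mitochondrial alanine aminotransferase, had the second largest fold change. Its CPM was 58.1, 56.9 and 53.3 in NC and 96.7, 98.1 and 99.3 in OE, again without overlap. In edgeR the log2 fold change was 0.81 with a standard error of 0.05 and an adjusted p of 7.9e-11, so it rose 1.75-fold and stayed under the threshold of 2. GPT, the cytosolic isozyme, had 2 counts in NC replicate 3 and 0 in the other samples, so nearly all counted alanine aminotransferase transcripts came from GPT2. The ratio of GPT2 to GOT2, both mitochondrial, turned over, from 0.589, 0.606 and 0.572 in NC to 1.23, 1.24 and 1.34 in OE. GPT2 (ENSG00000166123.14) lies at chr16:46884362-46931289 and is the only member on the plus strand.

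Of the members on the route from glutamate to proline, ALDH18A1 at its start fell and PYCR1 at its end rose. ALDH18A1, which turns glutamate into pyrroline-5-carboxylate, had a CPM of 42.8, 37.0 and 39.8 in NC and 25.2, 30.02 and 27.2 in OE. It had the widest spread of the members, with coefficients of variation of 7.28% in NC and 8.75% in OE, and its groups still did not overlap (−0.53 on the log2 scale, standard error 0.08, adjusted p = 5.3e-06, edgeR). PYCR1, which reduces pyrroline-5-carboxylate to proline, had 61.4, 61.3 and 61.8 in NC and 81.8, 85.6 and 81.3 in OE. The coefficient of variation of PYCR1 was 0.427% in NC. That is less than counting noise alone gives at 2137 to 2223 counts, so it does not measure how steady the gene is. All NC samples of PYCR1 lay below the OE samples (0.43 on the log2 scale, standard error 0.05, adjusted p = 6e-07, edgeR).

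The ratio of PYCR1 to ALDH18A1 in FPKM was 1.87, 2.16 and 2.02 in NC and 4.22, 3.72 and 3.90 in OE, a 1.96-fold difference without overlap. PYCR1 (ENSG00000183010.17) lies at chr17:81932384-81942412, and ALDH18A1 (ENSG00000059573.9) at chr10:95605941-95656711. On the opposite strand of PYCR1 a lncRNA (ENSG00000263585.1) overlaps its exons, and it had at most 1 count in a sample. On the same strand the protein-coding gene MYADML2 shares 408 exon bases with PYCR1, 0 of them in its MANE Select transcript, and its counts were not analysed here.

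**Figure D2:**
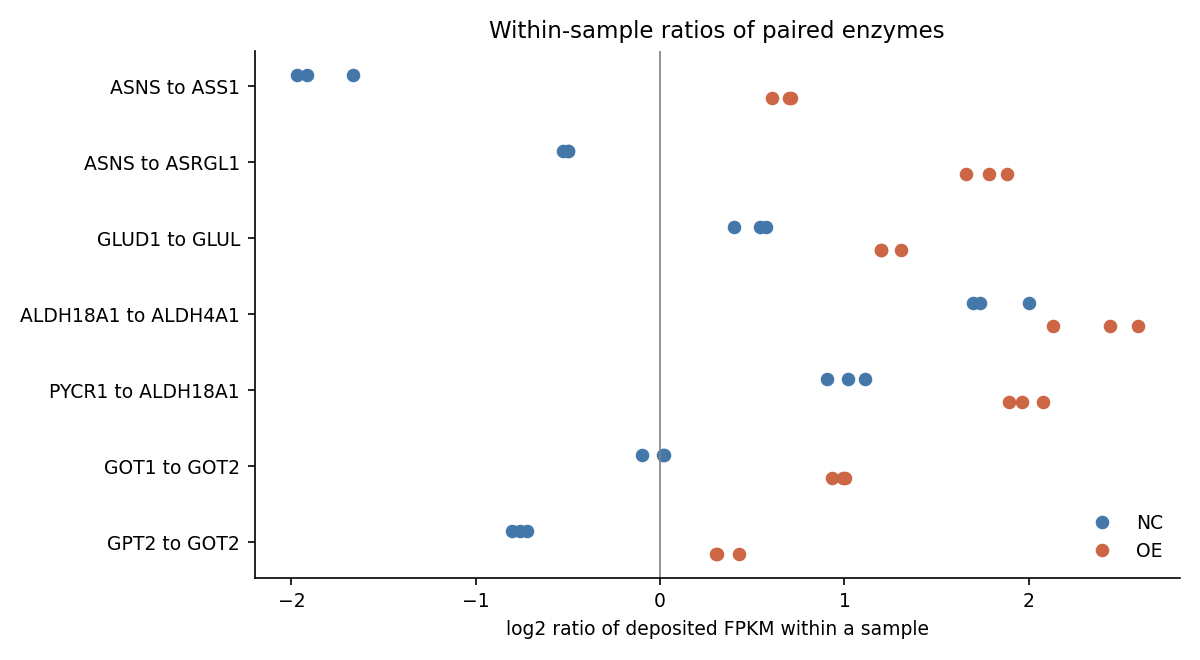
log2 ratio of the deposited FPKM of a pair of enzyme genes in each of the 3 NC (blue) and 3 OE (orange) samples, for the 7 ratios given. The groups do not overlap in these 7, and GOT1 to GOT2 goes from −0.02 to 0.98 on average.

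GLUL, glutamine synthetase, joins ammonia to glutamate and was the member with the largest fall. Its CPM was 66.0, 65.3 and 68.2 in NC and 42.4, 40.1 and 39.6 in OE. No OE sample came near an NC sample, and GLUL fell to 0.612 of its NC level, or −0.71 on the log2 scale (standard error 0.06, adjusted p = 1.3e-09, edgeR). GLUL (ENSG00000135821.19) lies at chr1:182378098-182392206 and overlaps no other annotated gene.

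GLUD1, glutamate dehydrogenase, releases ammonia from glutamate in mitochondria and was the most counted member. Its CPM was 111, 107 and 102 in NC and 110.1, 104 and 110.4 in OE, and the groups overlapped. The log2 fold change was 0.02, with a 95% interval of −0.09 to 0.13 and an adjusted p of 0.77 from edgeR. Fold changes outside 0.941 to 1.09 lie beyond that interval. GLUD1 (ENSG00000148672.10) lies at chr10:87050202-87094843, and SHLD2 on the opposite strand covers 14.1% of its MANE Select exon bases. SHLD2 was higher in OE by 0.33 on the log2 scale (adjusted p = 0.0019, edgeR), and the use of strand in counting is not given in the sources. The near copies GLUD2 and GLUD1P3 had 9 to 22 and 31 to 78 counts per sample, against 3652 to 4117 for GLUD1. The FPKM ratio of GLUD1 to GLUL was 1.49, 1.46 and 1.32 in NC and 2.30, 2.30 and 2.47 in OE, without overlap.

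**Figure D3:**
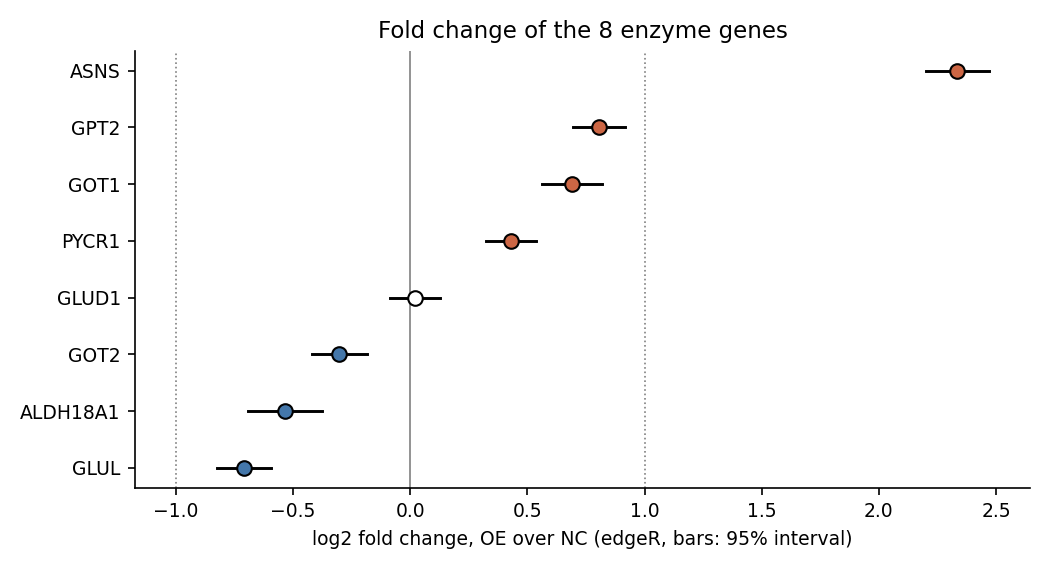
log2 fold change of OE over NC from edgeR for the 8 enzyme genes, with bars for the 95% interval, dotted lines at a fold change of 2 and 0.5, orange for higher and blue for lower at an adjusted p under 0.05, and an open circle for GLUD1. Only ASNS, at 2.33, lies beyond a dotted line.

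In order of fold change the members ran ASNS, GPT2, GOT1, PYCR1, GLUD1, GOT2, ALDH18A1 and GLUL. The 95% intervals of GPT2 (0.70 to 0.92) and GOT1 (0.56 to 0.82) overlapped, as did those of GOT2 (−0.42 to −0.19) and ALDH18A1 (−0.69 to −0.38), and of ALDH18A1 and GLUL (−0.82 to −0.59). The summed CPM of the 8 members was 438 ± 10.9 in NC and 539 ± 5.15 in OE (SD, n = 3 each). Without ASNS it was 423 ± 11.3 in NC and 461 ± 2.80 in OE.

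Levels can be compared between genes only per transcript length, and the length chosen changed the order. With the summed counts as library size, the deposited FPKM of all 8 members implied 1.08 times the union of all annotated exons. The median of 9843 genes gave the same factor. A factor shared by short and long genes can come from the library size used by the authors, which was not tested. The exon union of GLUD1 has 14283 bases and its MANE Select transcript 3300. For ASNS these are 4896 and 2385, and for ALDH18A1 3759 and 3352. In deposited FPKM, PYCR1 was highest in NC with 19.6 ± 0.281 (SD, n = 3), followed by GOT2 and GOT1, whose samples overlapped, and ASNS was lowest with 2.92 ± 0.129. In OE, PYCR1 (26.8 ± 0.847) was followed by GOT1 (22.3 ± 0.415), and ASNS (14.96 ± 0.758) was at rank 3 with samples that overlapped those of GPT2 (14.4 ± 0.396). GLUL was lowest in OE with 3.01 ± 0.0723, and the samples of GLUD1 and ALDH18A1, next above it, overlapped each other.

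In CPM per kilobase of the MANE Select transcript, a length chosen after the FPKM values had been seen, GLUD1 was highest in NC with 32.3 ± 1.46 (SD, n = 3). ASNS was again lowest with 6.52 ± 0.370 and reached 32.9 ± 1.49 in OE, behind PYCR1 with 36.5 ± 1.03 and with samples that overlapped those of GLUD1 (32.8 ± 1.08). The fold changes do not depend on the length. The FPKM ratios between genes and the GOT1 share of its pair do, while the fold difference of a ratio between NC and OE does not.

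**Figure D4:**
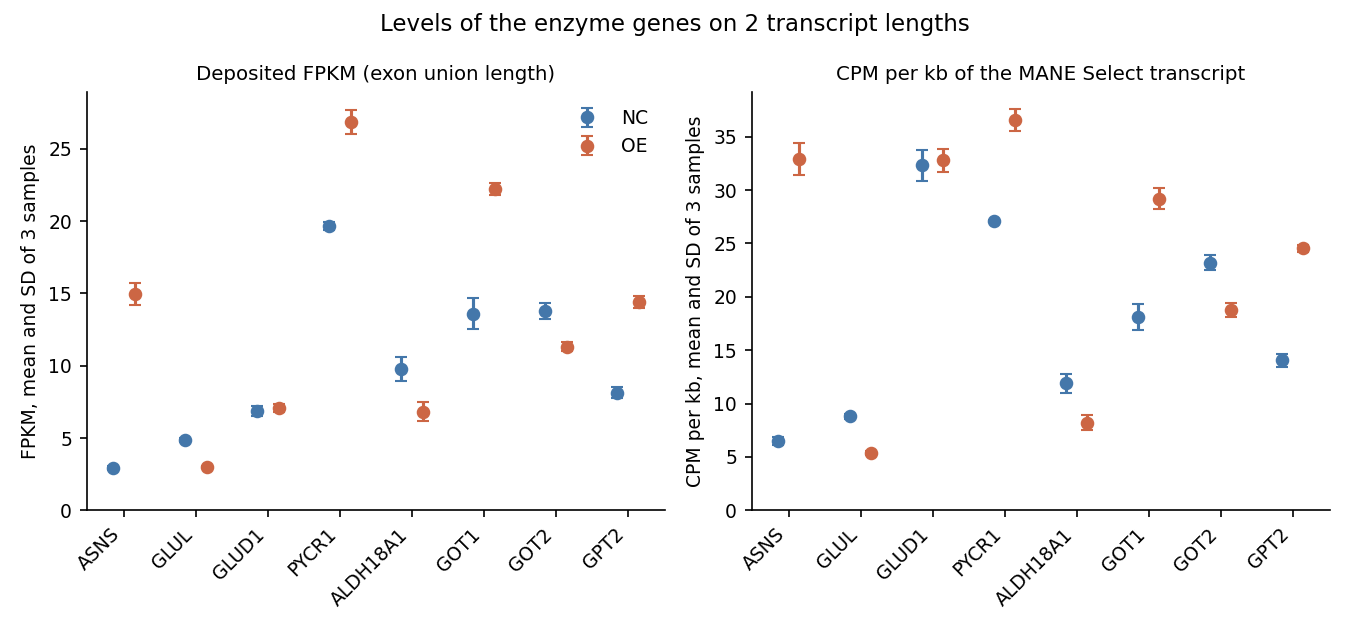
Level of each enzyme gene per transcript length in NC (blue) and OE (orange) as the mean ± SD of 3 samples, in deposited FPKM on the left and in CPM per kilobase of the MANE Select transcript on the right. GLUD1 is at rank 6 in NC on the left and at rank 1 on the right, while ASNS is lowest in NC on both.

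In the list of asparagine and aspartate metabolism, 12 genes were tested beside ASNS. Of these, 1 was higher and 2 were lower, where 24.9% and 23.7% of all tested genes were, and 9 did not pass, with a median log2 fold change of −0.05, beside −0.00321 over all tested genes. ASPG, an asparaginase with at most 14 counts in a sample, had −0.92 and did not pass (adjusted p = 0.11, edgeR). ASNSD1, which resembles asparagine synthetase, had 0.31 and ASS1, which joins aspartate to citrulline, had −0.19 (adjusted p = 0.027 from edgeR). ASRGL1, an asparaginase, had 0.05 (adjusted p = 0.61), so the FPKM ratio of ASNS to ASRGL1 went from 0.707, 0.707 and 0.694 in NC to 3.16, 3.69 and 3.44 in OE. The ratio of ASNS to ASS1 was 0.255, 0.315 and 0.265 in NC and 1.52, 1.62 and 1.64 in OE. Of 9 other enzymes that use the amide of glutamine, 4 were higher and 2 lower. PPAT, which starts purine synthesis, was the highest with 0.50, and NADSYN1, which completes NAD, the lowest with −0.47.

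Around GLUL and GLUD1, 0 of 8 tested genes of their list were higher and 2 were lower. Among all tested genes, 24.9% were higher and 23.7% lower. ABAT, which breaks down the transmitter GABA, was called lower at both thresholds, at −2.06 on the log2 scale (standard error 0.36, adjusted p = 7.3e-05, edgeR), and its mean CPM was 1.08 in NC and 0.259 in OE. GAD1, which makes GABA, was the other, at −0.54 with an adjusted p of 0.0043.

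In the proline and ornithine list, 3 of 7 tested genes beside the members were higher, 3 were lower and 1 did not pass. The gene that did not pass was PYCR3, related to PYCR1, with a log2 fold change of 0.18 (adjusted p = 0.24, edgeR). Among all tested genes, 24.9% were higher and 23.7% lower. ALDH4A1, which turns pyrroline-5-carboxylate back into glutamate, was called lower at both thresholds. Its log2 fold change was −1.12 with a standard error of 0.11, and its mean CPM was 10.98 ± 0.787 in NC and 5.06 ± 0.428 in OE (SD, n = 3 each). PRODH, which starts the breakdown of proline, had −0.80, and OAT, which links ornithine to the same intermediate, had −0.50, both at an adjusted p under 0.05 and both named after their values were seen. ODC1, which turns ornithine into putrescine, was the highest at 0.99 (standard error 0.05), just under the threshold of 1. The ratio of ALDH18A1 to ALDH4A1 was 4, 3.32 and 3.25 in NC and 4.38, 6.02 and 5.43 in OE, since the enzyme of breakdown fell further than that of synthesis.

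Of 8 tested transaminases beside the 3 members, 2 were higher, 3 were lower and 3 did not pass. Among all tested genes, 24.9% were higher and 23.7% lower, and 1.73% and 3.79% also passed the fold threshold. PSAT1, of serine synthesis, had a log2 fold change of 1.33 and BCAT1, the cytosolic transaminase of branched-chain amino acids, of 1.09, and both were called higher at both thresholds. ABAT was called lower, and KYAT3 and OAT were lower without the fold threshold. In the malate-aspartate shuttle, MDH1 and MDH2 had log2 fold changes of −0.0031 and −0.02 and did not pass. Of the aspartate-glutamate carriers, SLC25A12 had 0.48 (adjusted p = 0.00022, edgeR). SLC25A13 had 0.12 and did not pass (adjusted p = 0.1, edgeR). The mean CPM of SLC25A13 was 40.5 in NC and 44.1 in OE, against 9.21 and 12.9 for SLC25A12. The oxoglutarate carrier SLC25A11 had 0.38 (adjusted p = 0.00099, edgeR).

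**Figure D5:**
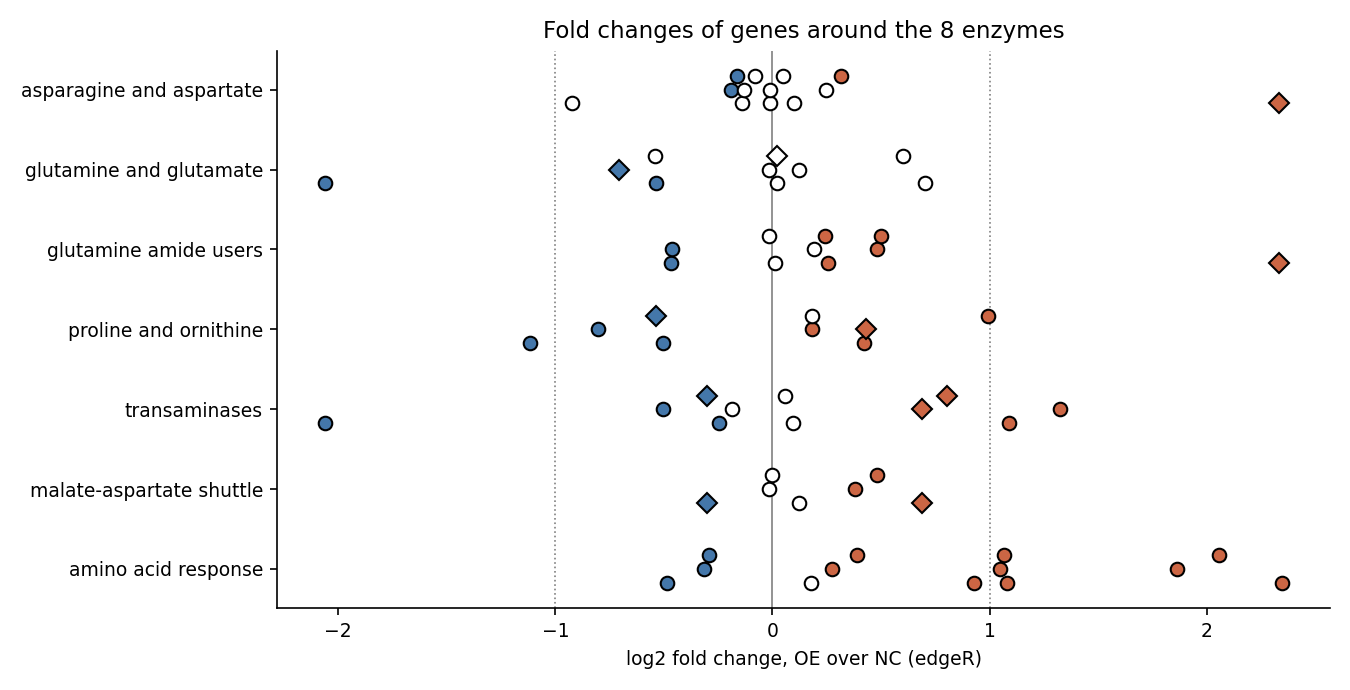
log2 fold change of OE over NC from edgeR for the tested genes of 7 lists, with diamonds for the 8 enzyme genes and circles for the others, orange for higher and blue for lower at an adjusted p under 0.05, open symbols for the rest and dotted lines at a fold change of 2 and 0.5. ASNS, at 2.33, lies close to TRIB3, at 2.35 in the amino acid response list.

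Of 13 genes of the amino acid response, 9 were higher, 6 of them also past a fold change of 2, and 3 were lower. Over all tested genes the shares were 24.9% higher, 1.73% also past that fold change, and 23.7% lower. TRIB3 was highest with 2.35, followed by NUPR1 (2.06), SESN2 (1.87), DDIT3 (1.08), CHAC1 (1.07) and CEBPG (1.05), all called at both thresholds. The lower genes were VLDLR (lowest, −0.49), ATF5 (−0.32, adjusted p = 0.00055, edgeR) and ATF3 (−0.29, adjusted p = 6.8e-05, edgeR). ATF4, whose protein level is known to be set largely by translation, had 0.28. The study singled out TRIB3 and NUPR1 with these samples, so these genes are no independent evidence of the direction of the list. In the study's RT-PCR on the same RNA, NUPR1 was higher in OE, but TRIB3 was lower, opposite to its sequencing result. Outside all lists, the genes whose CPM over the 6 samples, relative to the NC mean, was most like that of ASNS were INHBE, BEX2 and PTX3. Their root mean square differences from ASNS on the log2 scale were 0.114, 0.244 and 0.250, among 11706 tested genes whose mean count was 100 or more. INHBE encodes a subunit of activin and had a CPM of 5.75, 5.85 and 5.42 in NC and 29.7, 27.2 and 24.5 in OE.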

How the data were processed

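Per the methods of the study, reads were trimmed (FASTX-Toolkit) and mapped with HISAT2 on GRCh38, and only those with a single mapping position entered the gene counts, which the authors deposited without normalization. The submitters' processing notes also name mm10, a mouse build, in no stated role. The deposited FPKM values were computed by the authors from the same reads and are given to 2 decimals. The annotation, the counting program and the use of strand are not given in the sources used here. Unique mapping lowers the counts of genes with near-identical copies.

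From the counts, edgeR 4.0.16 (R 4.3.3) was run with filterByExpr, TMM and the quasi-likelihood F-test on all 6 samples, with Benjamini-Hochberg adjustment over 15878 genes. Each standard error is the size of the log2 fold change over the root of F, and CPM uses TMM library sizes. DESeq2 1.42.0 and limma 3.58.1 were alternatives. The edgeR fit was tested on simulated data. GENCODE release 44 held 99.8% of the identifiers in the tables and gave positions, overlaps and lengths. Ratios were tested by exact permutation over samples. Some genes and ratios of the planned lists are not reported here, and counts, medians and adjusted values of the lists and ratios leave them out. The members, lists, ratios and motifs were chosen with earlier results of these data known. Genes named beside the members are those with the highest and lowest fold change of each list among those past an adjusted p of 0.05, those called with the fold threshold, those of the ratios and copies with at least 10 counts in a sample. GAD1, PRODH, OAT, KYAT3, GPT, MDH1, MDH2, ATF3, ATF4, ATF5, ASPG, the overlapping genes and the cell type markers were named after their values were seen. So were PYCR3 and SLC25A13. Deviations from the group means were not shared by samples of the same number (correlations of −0.0663 to −0.00319), so no pairing was used. Samples and replicate numbers were taken from the labels and the column names.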

Additional observations from a re-analysis of the deposited data

How the results depend on the processing

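The 7 members that passed the test kept their direction and stayed at an adjusted p under 0.05 in all 15 alternatives (DESeq2, other normalizations and filters, the replicate block, limma on FPKM, each sample left out). Their log2 fold changes ranged from 2.02, on log2(FPKM + 1), to 2.38 for ASNS, 0.76 to 0.84 for GPT2, 0.64 to 0.74 for GOT1, 0.39 to 0.45 for PYCR1, −0.34 to −0.26 for GOT2, −0.60 to −0.46 for ALDH18A1 and −0.75 to −0.55 for GLUL. GLUD1 passed in none of them, and its sign turned, to −0.0175 with upper quartile normalization, while it ran from −0.00978 to 0.0552 with a sample left out. The cause was not tested. The 7 ratios kept their direction in all alternatives. Without NC replicate 2, ASNS had 2.38 and GOT1 0.64.

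Over all genes, limma called 55 higher and 69 lower past the fold threshold on log2(FPKM + 1), and 155 and 282 on log2(FPKM + 0.1), where the pseudocount shrinks the fold change of low genes. edgeR called 274 and 601. With the replicate block ASNS had 2.33, and 0 genes of the asparagine and aspartate list were lower, against 2 without it. The same-numbered samples share only a number. That list had 0 to 2 lower genes over all alternatives and 2 higher ones without NC replicate 1, and the glutamine and glutamate list had 1 higher gene without NC replicate 1, OE replicate 2 or OE replicate 3, and 1 lower gene in place of 2 with at least 10 counts in every sample, a filter that removes ABAT. Counts of the other lists stayed within 1.5 times of those given. GPT, GAD2 and the pseudogenes other than GLUD1P3 were under the filter on low counts and had no test.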
